A study of Mus musculus with 3 samples.

Results

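Immediate early genes and the inducible heat shock genes were followed across the immune cells of NOD mouse islets. The 10 genes were Fos, Fosb, Jun, Junb, Jund, Dusp1, Atf3, Ier2, Hspa1a and Hspa1b. They were chosen by symbol out of 32285 genes in the deposited tables. The cells were live CD45+ cells sorted by flow cytometry from dispersed islets of wild-type female NOD mice of 15 to 16 weeks, the strain that develops autoimmune diabetes spontaneously. Each of the 3 libraries, called replicates 1 to 3, held islets pooled from 2 to 3 mice. There was 1 condition and no other group to compare it with, so classes of cells and libraries were compared. All 3 libraries passed through the same preparation, with Collagenase P for 15 minutes at 37 °C, a density gradient, trypsin dispersion and 1 hour of rest in culture medium before sorting. Induction of a gene in the inflamed islet and induction during this preparation therefore cannot be told apart, and no sample without dissociation was analysed here.

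Immediate early genes are transcribed within minutes of a stimulus, from promoters that need no new protein. Fos, Fosb, Jun, Junb and Jund encode subunits of AP-1, a dimeric transcription factor that lymphocytes use after antigen receptor signalling. Atf3 encodes a bZIP partner of these subunits that is induced by many stresses, Ier2 encodes a nuclear protein of the same early wave, and Dusp1 encodes a phosphatase that switches off the MAP kinases that drive the wave. Hspa1a and Hspa1b encode the inducible HSP70 chaperones, which the factor HSF1 switches on when proteins unfold. Both groups are known to be induced when tissues are dissociated with warm enzymes, and both respond to activation of immune cells.

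The genes lie on 6 chromosomes of GRCm38, with positions here from GENCODE M21. Fos is at chr12:85473890-85477273 on the forward strand, Fosb at chr7:19302696-19310051, Jun at chr4:95049034-95052222, Junb at chr8:84974484-84978718 and Ier2 at chr8:84661331-84662852 on the reverse strand, and Jund at chr8:70698949-70700616 on the forward strand. Dusp1 (chr17:26505590-26562128), Atf3 (chr1:191170296-191218039), Hspa1a (chr17:34969190-34972156) and Hspa1b (chr17:34956436-34959238) are on the reverse strand. An annotated gene on the opposite strand overlaps Jun, Junb, Jund, Dusp1, Atf3 and Hspa1a, and 2 small annotations on its own strand lie within Dusp1. Whether reads were counted by strand is not given in the sources used here, and mixing of reads of such pairs was not tested. Hspa1a and Hspa1b are neighbours, 9951 bases apart, and near-identical copies. Of the windows of 91 bases along the Hspa1a transcript, 49.1% also occur in Hspa1b, but none of the 410 windows in its last 500 bases does, and the same holds in the other direction. Counts from the 3′ end can thus separate the pair.

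The promoter sequences below show what some of these genes have in common before their start sites. They are the 250 bases before the RefSeq start on GRCm38.p6, written 5′ to 3′ on the strand of the gene. The GENCODE spans of Dusp1 and Atf3 begin further upstream, so the windows of these genes lie within the spans given above. Only the RefSeq start was searched. For Fos, Dusp1 and Atf3, the members that hold it, capitals mark TGACGT on either strand, the core of the cyclic AMP response element that CREB and ATF family factors bind. For Hspa1a and Hspa1b, capitals mark GAANNTTC, the core of a heat shock element. The windows are chr12:85473640-85473889 (forward) for Fos, chr17:26508473-26508722 (reverse) for Dusp1, chr1:191183334-191183583 (reverse) for Atf3, chr17:34972157-34972406 (reverse) for Hspa1a and chr17:34959239-34959488 (reverse) for Hspa1b.
Fos: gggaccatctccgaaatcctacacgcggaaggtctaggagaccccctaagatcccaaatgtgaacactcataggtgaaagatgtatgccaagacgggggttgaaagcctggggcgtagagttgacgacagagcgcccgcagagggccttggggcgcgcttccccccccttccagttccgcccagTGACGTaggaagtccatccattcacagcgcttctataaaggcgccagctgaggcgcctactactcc
Dusp1: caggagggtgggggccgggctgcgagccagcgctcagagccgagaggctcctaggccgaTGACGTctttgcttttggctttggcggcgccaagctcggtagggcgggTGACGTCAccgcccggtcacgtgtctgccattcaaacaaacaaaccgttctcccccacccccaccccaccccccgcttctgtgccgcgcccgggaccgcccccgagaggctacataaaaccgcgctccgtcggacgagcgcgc
Atf3: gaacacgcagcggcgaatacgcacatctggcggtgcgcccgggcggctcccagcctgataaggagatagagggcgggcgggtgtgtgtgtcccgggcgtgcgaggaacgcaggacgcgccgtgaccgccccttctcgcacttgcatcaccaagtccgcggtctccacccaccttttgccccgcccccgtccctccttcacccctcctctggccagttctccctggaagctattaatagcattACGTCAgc
Hspa1a: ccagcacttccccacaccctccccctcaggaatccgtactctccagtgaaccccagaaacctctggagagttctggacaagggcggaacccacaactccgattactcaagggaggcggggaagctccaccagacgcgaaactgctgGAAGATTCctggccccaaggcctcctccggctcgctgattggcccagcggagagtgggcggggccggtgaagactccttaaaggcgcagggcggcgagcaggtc
Hspa1b: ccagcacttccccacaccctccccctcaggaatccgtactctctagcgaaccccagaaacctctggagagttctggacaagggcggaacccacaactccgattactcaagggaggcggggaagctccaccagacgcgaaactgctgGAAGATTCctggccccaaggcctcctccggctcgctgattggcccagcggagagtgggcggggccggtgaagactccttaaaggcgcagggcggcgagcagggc
Over 32851 promoters of the same length, 6.47% hold TGACGT and 6.69% hold GAANNTTC. Of the 9 members in the table, 3 hold TGACGT (Fos, Dusp1 and Atf3) and 3 hold GAANNTTC (Jun, Hspa1a and Hspa1b). In Fos the TGACGT starts 66 bases before the start site, and the letters TATAAA, found in 12.4% of promoters, start 33 bases before it. Dusp1 also holds the full palindrome TGACGTCA, found in 1.55% of promoters, in which TGACGT reads on both strands. TGANTCA, the site that AP-1 itself binds, is in 6.75% of promoters and in none of the 9. The promoters of Hspa1a and Hspa1b differ at 3 of 250 positions, and in both the GAANNTTC starts 104 bases before the start site. A match is a run of letters and was not shown to be a bound site. GGGCGG was found in 7 of the 9 against 32.7% of all promoters, and CCAAT in 4 of the 9 against 33.8%.

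Cells with at least 1000 UMIs (unique molecular identifiers, each a counted RNA molecule) and under 10% mitochondrial UMIs were put into classes by their marker UMIs. Of 26947 cells, 26142 passed and 15673 met exactly 1 gate. These were 3199 CD8 T cells, 5858 conventional CD4 T cells, 1612 regulatory T cells (Treg, gated on Foxp3), 4936 B cells and 68 macrophages. A further 59 cells met both the CD8 T and the Treg gate and were left out of both. The libraries differed in size, with 5844, 9537 and 11566 cells and 33851381, 74775394 and 80806452 UMIs in replicates 1, 2 and 3. Between 12 and 29 cell barcodes were shared by a pair of libraries. The macrophage class was small in every library (31, 10 and 27 cells, with 189185, 126156 and 242681 UMIs), and its values carry the counting error of these sums. Its summed macrophage markers were at 11985 to 16032 CPM (counts per 1000000 UMIs of the class in that library), against at most 211 in any other class. Single macrophage markers differed between its libraries. Apoe was at 7088, 1593 and 3989 CPM in replicates 1, 2 and 3, and C1qc at 2363, 745 and 1228. Adgre1 and Ms4a7 were also lowest in replicate 2, while Lyz2, Csf1r and Cd68 were lowest in replicate 1. Median UMIs per macrophage were 5376, 12864 and 8180. Whether the gate held like cells in each library was not tested. T-cell markers were at 0 to 39.6 CPM in macrophages, B-cell markers at 63.4 to 132, and NK, neutrophil and erythroid markers at 0. CD8 T markers were at 2812 to 4661, nearly all of it the chemokine gene Ccl5 with Cd8b1 at 0. Dendritic cell markers were at 37.0, 71.3 and 28.8 CPM in macrophages of replicates 1, 2 and 3, against at most 22.8 in any other class. Plasma cell markers were at 5.29 to 82.4 in macrophages. Islet endocrine markers were at 143, 7.93 and 1372 CPM in the macrophages of replicates 1, 2 and 3, and at 4.19 to 99.3 in the lymphocytes. B-cell markers were at 2340 to 4222 CPM in B cells. In Treg they were at 417 to 1393, in CD4 T cells at 327 to 509 and in CD8 T cells at 113 to 551. Plasma cell markers reached 811 CPM in Treg and 636 in CD8 T cells, both in replicate 1. Stricter gates with no Cd79a, Cd79b, C1qa, C1qb or Lyz2 UMI kept 1114 of the 1612 Treg. They kept 4911 of the 5858 CD4 T and 2731 of the 3199 CD8 T cells. In sums of cells, fewer expressing cells and less RNA per cell cannot be told apart, so single cells are described after the sums.

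The heat shock pair showed the widest difference between classes. In macrophages Hspa1a was at 566, 7.93 and 1463 CPM in replicates 1, 2 and 3, and Hspa1b at 571, 23.8 and 964. In each lymphocyte class the mean was between 3.01 and 6.48 CPM for either gene. The low macrophage library, replicate 2, rested on 1 Hspa1a and 3 Hspa1b UMIs in 10 cells. It overlapped the lymphocyte range for Hspa1a and not for Hspa1b, and the other macrophage libraries lay far above it for both.

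**Figure D1:**
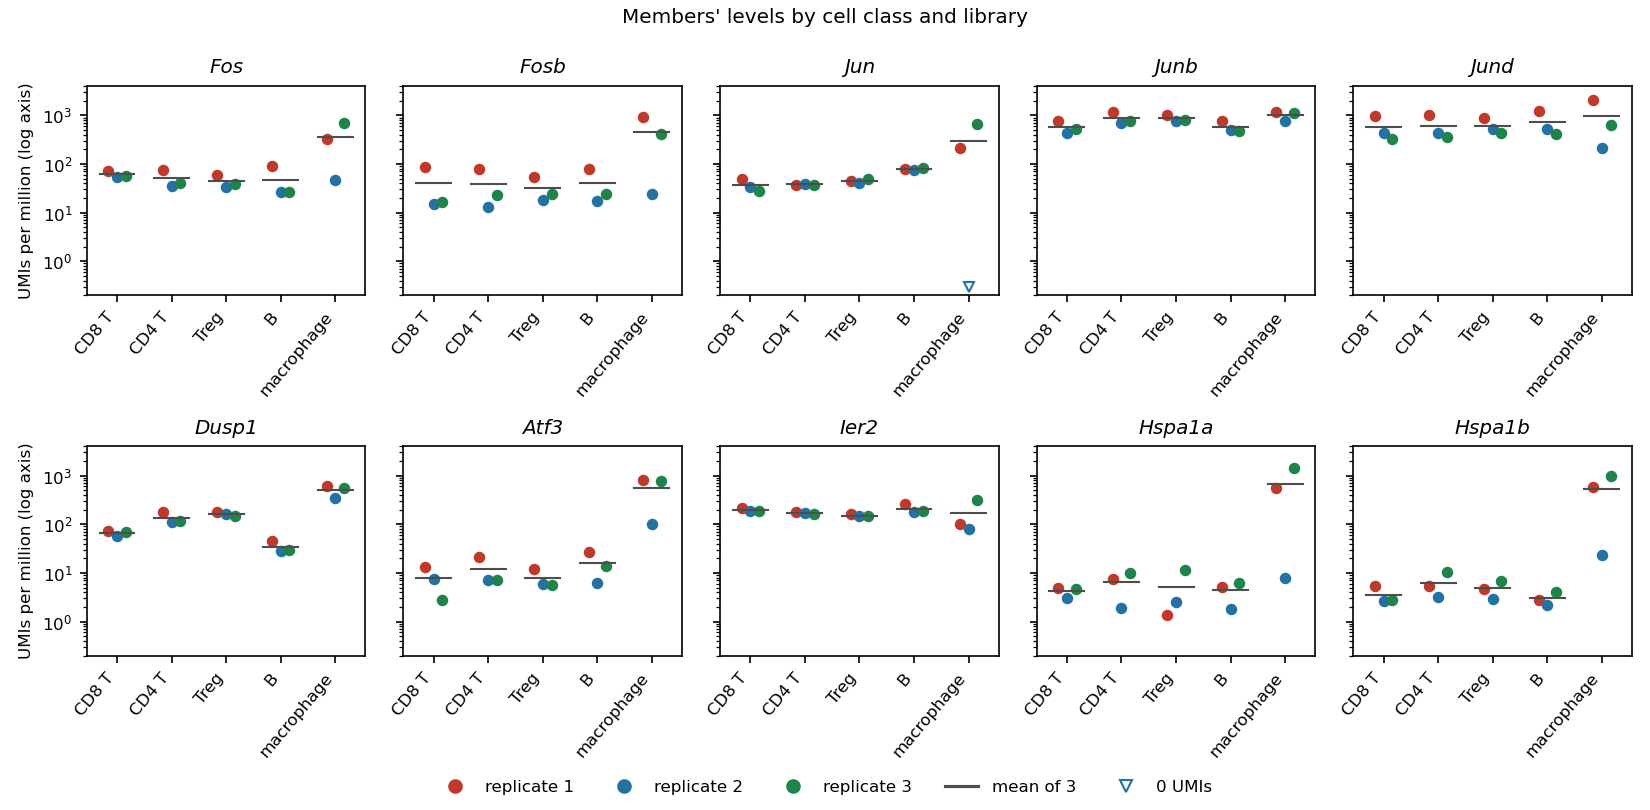
Levels of the 10 members in CPM (log axis) in each cell class, with 1 point per library and the mean of 3 as a line. The open triangle marks 0 UMIs of Jun in the macrophages of replicate 2. Macrophage points reach above the lymphocyte points for most members, and in Fosb, Jund and Atf3 the replicate 1 point is the highest of each lymphocyte class.

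Among lymphocytes the heat shock levels were low and overlapped throughout. Hspa1a was at 6.48 ± 4.13 (SD, n = 3 libraries, here and below) CPM in CD4 T cells, 5.04 ± 5.43 in Treg, 4.40 ± 2.33 in B cells and 4.17 ± 1.03 in CD8 T cells. Hspa1b ran from 6.31 ± 3.62 in CD4 T cells to 3.01 ± 0.968 in B cells. No neighbouring classes in either order were apart. The highest lymphocyte values were those of replicate 3, with 10.0 and 10.3 CPM of Hspa1a and Hspa1b in CD4 T cells and 11.3 of Hspa1a in Treg. The Treg sum of replicate 1 held only 3 Hspa1a UMIs, at 1.37 CPM.

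The Fos subunits were also highest in macrophages, again with replicate 2 low. Fos was at 333, 47.6 and 684 CPM in macrophages, and its lymphocyte means lay between 44.3 ± 13.2 (Treg) and 60.7 ± 10.2 (CD8 T). Fosb was at 904, 23.8 and 408 in macrophages, and its lymphocyte means were at most 40.9 ± 34.5 (B). For both genes replicate 2 macrophages fell inside the lymphocyte range, and the other macrophage libraries stood above it. The 4 lymphocyte classes overlapped for both genes. The mean of the highest lymphocyte class over the lowest was 1.37-fold for Fos and 1.28-fold for Fosb.

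The Jun subunits differed in pattern. Jun was at 211, 0 and 676 CPM in macrophages, where the 0 of replicate 2 allows up to 23.8. In B cells Jun was at 78.5, 75.2 and 80.7, in Treg at 45.5, 39.8 and 48.7, in CD4 T cells at 37.7, 38.9 and 37.7 and in CD8 T cells at 49.6, 33.8 and 28.2. The B cells thus stood above all 3 T-cell classes in each library, and Treg narrowly above CD4 T cells without overlap. Junb was highest in macrophages, at 1158, 761 and 1125 CPM. These values overlapped those of Treg (870 ± 142), CD4 T cells (863 ± 252) and B cells (581 ± 169), and CD8 T cells were at 572 ± 168. Jund was at 2109, 214 and 643 CPM in macrophages, and had lymphocyte means from 574 ± 346 (CD8 T) to 717 ± 434 (B). All neighbouring classes overlapped for Junb and Jund.

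Dusp1, the MAP kinase phosphatase, was the member with the clearest order of classes. It was at 624, 349 and 569 CPM in macrophages, 182, 162 and 144 in Treg, 177, 111 and 115 in CD4 T cells, 73.7, 58.4 and 69.9 in CD8 T cells and 45.2, 28.0 and 29.2 in B cells. Treg and CD4 T cells overlapped, and every other pair of neighbours in that order was apart. Atf3 was at 803, 103 and 783 CPM in macrophages, where the lowest library was still above all lymphocyte libraries. Its lymphocyte means were 15.6 ± 10.6 (B), 11.8 ± 8.08 (CD4 T), 7.86 ± 5.28 (CD8 T) and 7.81 ± 3.49 (Treg), all overlapping. Ier2 was the exception. Its macrophage values of 100.4, 79.3 and 321 CPM bracketed those of B cells (209 ± 47.0), CD8 T cells (193 ± 15.5), CD4 T cells (171 ± 8.62) and Treg (151 ± 10.7). The CD8 T values lay above the CD4 T values, and these above the Treg values, without overlap.

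The class differences were tested on the summed UMIs with the quasi-likelihood test of edgeR, taking differences within libraries (a library block), and p-values were adjusted by Benjamini-Hochberg over the 12099 genes tested. Against the mean of the 3 T-cell classes, 8 of the 10 members were called higher in macrophages and 0 lower. Over all genes 15.1% were called higher and 20.8% lower, and the median log2 fold change was −0.53. The balance over all genes depended on the tool, with 1826 called higher and 2521 lower here, 1988 and 2074 with the size factors of DESeq2 in edgeR, and 2201 and 1795 by DESeq2 itself. Against B cells the counts were again 8 and 0, with a background of 15.4% higher and 20.6% lower and a median of −0.56. There 1865 genes were called higher and 2494 lower, against 2028 and 1929 with those size factors and 2362 and 1631 by DESeq2. Both contrasts share the macrophage sums. By DESeq2, 8 members were called higher than in T cells and 7 than in B cells.

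**Figure D2:**
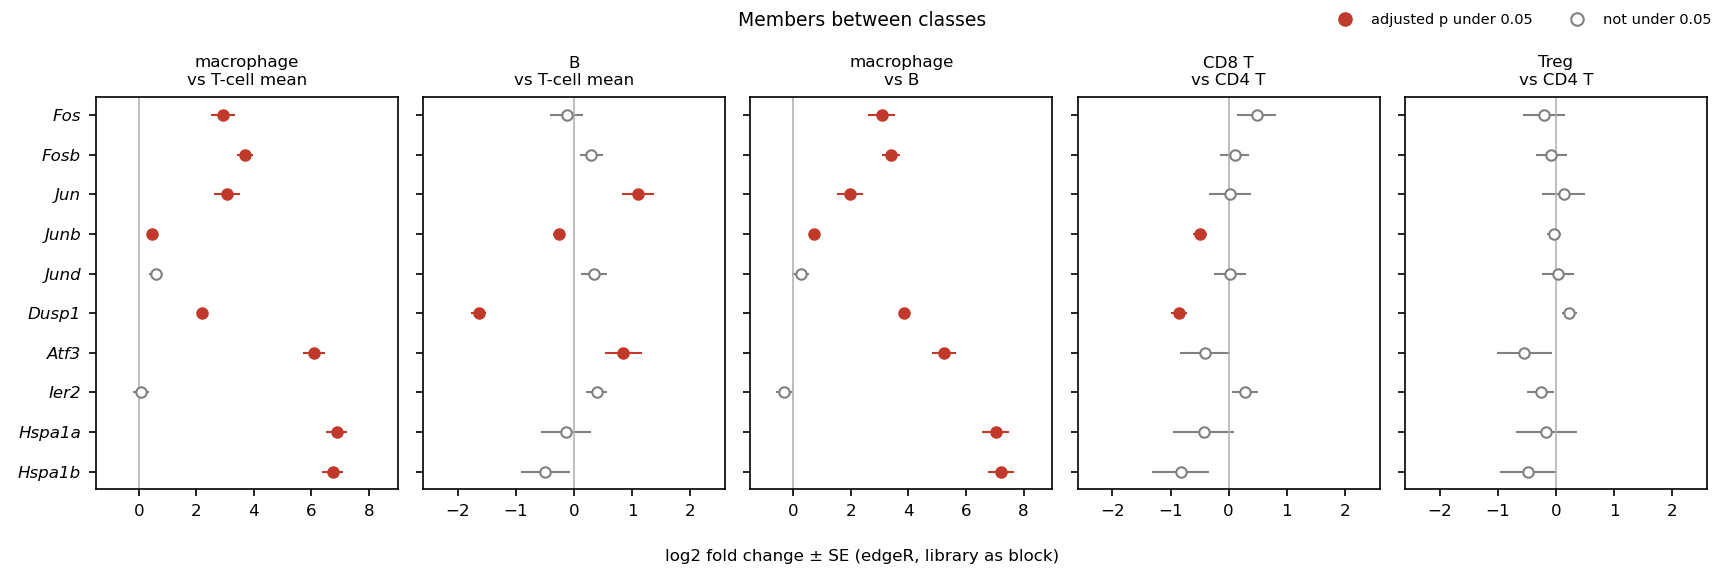
Log2 fold change of each member between classes, with the standard error from edgeR and library as a block. Filled points have an adjusted p under 0.05. The macrophage panels have a wider axis, and there all members but Jund and Ier2 are filled. The 3 lymphocyte panels hold 4, 2 and 0 filled points.

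The heat shock pair had log2 fold changes of 6.89 ± 0.37 (SE, edgeR adjusted p = 8.33e-10, Hspa1a) and 6.74 ± 0.36 (adjusted p = 8.7e-10, Hspa1b) against T cells. Atf3 followed with 6.09 ± 0.38, Fosb with 3.69 ± 0.29, Jun with 3.07 ± 0.45, Fos with 2.94 ± 0.41 and Dusp1 with 2.20 ± 0.14. Junb rose by only 0.45 ± 0.11 (adjusted p = 0.00324 by edgeR). Jund (0.59 ± 0.25, adjusted p = 0.0776) and Ier2 (0.08 ± 0.28, adjusted p = 0.833) did not pass in edgeR's test. These standard errors come from a spread shared with the lymphocyte sums, while the macrophage libraries themselves ranged from 7.93 to 1463 CPM in Hspa1a. Against B cells the log2 fold changes were 7.23 ± 0.46 for Hspa1b, 7.03 ± 0.47 for Hspa1a, 5.24 ± 0.42 for Atf3, 3.84 ± 0.17 for Dusp1, 3.39 ± 0.32 for Fosb, 3.06 ± 0.46 for Fos, 1.97 ± 0.47 for Jun and 0.71 ± 0.13 for Junb, and Jund (0.25 ± 0.30) and Ier2 (−0.31 ± 0.30) again did not pass.

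Some macrophage calls rested on 1 library or 1 cell. Without replicate 3 the log2 fold change against T cells was 1.80 for Fos (edgeR adjusted p = 0.00769), 1.57 for Jun (0.0675) and 0.30 for Junb (0.0989), and that of Jun against B cells was 0.53 (0.529). Without replicate 2 Jund rose to 0.99 and passed (adjusted p = 0.000193 by edgeR). Ier2 turned to −0.94 without replicate 3 (adjusted p = 0.011). The richest macrophage of replicate 3 carried 48 of 78 Ier2 UMIs. With the richest macrophage of each library left out, a choice made after seeing the values, Ier2 was lower than in T cells (−0.86 ± 0.20, adjusted p = 0.00344 by edgeR), Junb no longer passed (0.25, adjusted p = 0.0672) and Fos fell to 1.83 and still passed. The Atf3, Hspa1a and Hspa1b values stayed between 5.23 and 7.23 against T cells under each of these omissions. Each omission kept replicate 1 or replicate 3, which held 107 and 355 Hspa1a UMIs in macrophages against 1 in replicate 2. Within replicate 2, Hspa1a was at 7.93 CPM in macrophages and at 2.98, 1.94 and 2.48 in CD8 T, CD4 T and Treg. Hspa1b was at 23.8 CPM there, against 2.70, 3.23 and 2.92. A fold change of this size was thus not seen within replicate 2 for the pair.

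B cells differed from T cells in 4 members, 2 higher and 2 lower, where 27.3% of all genes were called higher and 29.5% lower. A share near this background is not a result about the members as a group. Dusp1 was lower in B cells, by −1.64 ± 0.13 on the log2 scale (edgeR adjusted p = 1.97e-08), and lower in 3 of 3 libraries. Jun was higher by 1.10 ± 0.27 (adjusted p = 0.00257 by edgeR), also in 3 of 3 libraries, but not called by DESeq2 (1.05, adjusted p = 0.225). Junb was lower by −0.26 ± 0.10 (adjusted p = 0.0338) and Atf3 higher by 0.85 ± 0.32 (adjusted p = 0.0348), both by edgeR and close to the threshold. Atf3 was higher in 2 of 3 libraries, was not called by DESeq2 (0.78, adjusted p = 0.174), and lost its call without replicate 1 (0.73) or 3 (0.51). Junb lost its call without replicate 2 (−0.29) or 3 (−0.19). For Fos, Fosb, Jund, Ier2, Hspa1a and Hspa1b the differences lay between −0.49 and 0.40 and did not pass.

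CD8 T cells had less Dusp1 and Junb than CD4 T cells. Dusp1 differed by −0.85 ± 0.14 (edgeR adjusted p = 0.000664) and Junb by −0.49 ± 0.12 (adjusted p = 0.0148), both lower in 3 of 3 libraries. The Dusp1 values of the classes did not overlap and those of Junb did. No member was called higher, and over all genes 4.55% were called higher and 6.61% lower. At an unadjusted p under 0.05 the count of higher members was also 0, and DESeq2 called the same numbers, 0 higher and 2 lower. Without replicate 2 or without replicate 3 the Junb difference was −0.47 (adjusted p = 0.172) and −0.51 (adjusted p = 0.0692) in edgeR, while Dusp1 kept its call. Without the library block neither passed (adjusted p = 0.0519 for Dusp1 and 0.492 for Junb in edgeR).

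No member passed the test between Treg and CD4 T cells. The numbers called were 0 higher and 0 lower by edgeR, 0 and 0 by DESeq2, and 0 and 0 at an unadjusted p under 0.05 in edgeR. Over all genes 3.48% were called higher and 2.29% lower in Treg. The log2 differences ran from −0.55 ± 0.47 (Atf3) to 0.23 ± 0.14 (Dusp1), and the lowest adjusted p was 0.415 by edgeR. Dusp1 was higher in Treg in 3 of 3 libraries with overlap. The ranges of Jun (higher in Treg, edgeR adjusted p = 0.931) and Ier2 (lower in Treg, edgeR adjusted p = 0.634) did not overlap. The share of all genes without overlap was not computed, so this is not a result about the members. Treg were gated on a Foxp3 UMI and were the deeper cells, with median counts of 4618, 9843 and 9055 UMIs against 4549, 6423 and 5520 in CD4 T cells.

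The libraries differed in these genes in a way shared across classes. Replicate 1 was the highest library in all 5 classes for 5 of the 10 members (Fosb, Junb, Jund, Dusp1 and Atf3), where 8.35% of all genes tested behaved so. For 3 of these its lead over replicate 3 in macrophages was narrow, in sums of 118 to 273 UMIs. These were Junb (1158 against 1125 CPM), Dusp1 (624 against 569) and Atf3 (803 against 783). For replicate 2 and replicate 3 the count was 0 members, with 0.926% and 1.47% of all genes. Within the 4 lymphocyte classes, 7 of 10 members were highest in replicate 1, adding Fos and Ier2, against 21.1% of all genes. Replicate 1 is 1 library, so this is a description of it without a test. With stricter gates against mixed cells the count over 5 classes fell to 2, Fosb and Jund. Those gates left 28, 6 and 26 macrophages in replicates 1, 2 and 3. The share of all genes was not computed under them, so the 2 cannot be set against a background.

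**Figure D3:**
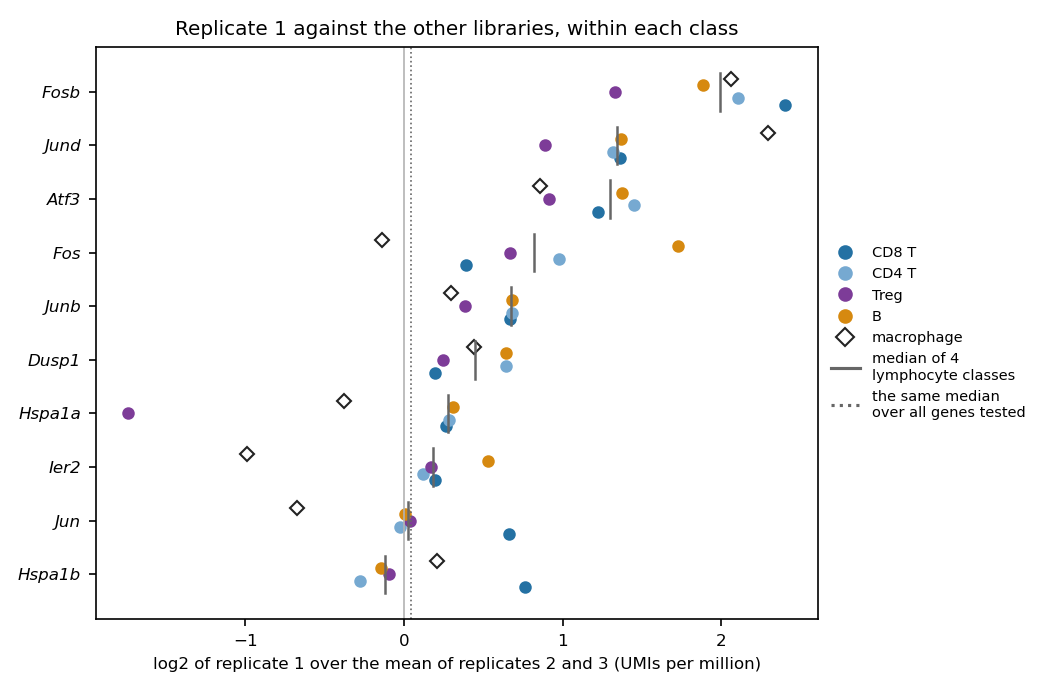
Log2 of the level in replicate 1 over the mean of replicates 2 and 3, within each class, with 1 CPM added to both. Circles are lymphocyte classes, diamonds macrophages, the vertical line in each row the median of the 4 lymphocyte classes, and the dotted line that median over all genes tested. Fosb, Jund and Atf3 are shifted right in all 5 classes, and Jun and the heat shock pair lie on both sides of the dotted line.

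In lymphocytes Fosb carried the largest median shift of the 10 members. In replicates 1, 2 and 3 it was at 88.2, 15.0 and 16.8 CPM in CD8 T cells, 79.7, 12.8 and 22.7 in CD4 T cells, 54.2, 17.8 and 24.1 in Treg and 80.5, 17.6 and 24.6 in B cells. Replicate 1 was 2.51- to 5.28-fold above the mean of the other libraries in lymphocytes and 4.17-fold in macrophages. For these folds and for all log2 shifts, 1 CPM was added to both sides. This makes the shifts of genes at low CPM, such as Atf3 and the heat shock pair in lymphocytes, smaller. The ratios between class means or library means had nothing added. The median lymphocyte log2 shift of 1.99 was larger than that of 99.4% of the genes tested, whose median was 0.048. Thus the spread of Fosb between libraries, 4.78-fold over the lymphocyte means, was far wider than that between lymphocyte classes.

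Jund was also highest in replicate 1 throughout. It was at 970, 425 and 327 CPM in CD8 T cells, 1009, 441 and 366 in CD4 T cells, 882, 530 and 424 in Treg and 1214, 527 and 410 in B cells. The shift was 1.34 (median over lymphocyte classes, log2), above 98.4% of genes, and in macrophages it was 2.30, or 4.91-fold, more than the 2.06 of Fosb there. Atf3 had a median shift of 1.30 (above 98.2% of genes), Fos 0.82 (94.8%), Junb 0.67 (91.9%), Dusp1 0.45 (83.8%) and Ier2 0.18 (64.3%). The Treg shift was the smallest of the 4 lymphocyte classes for Fosb, Jund, Junb and Atf3. Fos in B cells had a shift of 1.73, with 89.7, 26.6 and 26.2 CPM, against 0.39 in CD8 T cells with 72.4, 53.6 and 56.2.

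Jun, Ier2 and the heat shock pair had the smallest median shifts, though not in every class. Jun had a median lymphocyte shift of 0.02, with 0.66 in CD8 T cells, about that of Junb there (0.67), and −0.03 to 0.04 in the other lymphocyte classes. Hspa1a (0.28) and Hspa1b (−0.12) were highest in replicate 3 in 4 of the 5 classes each and in no class highest in replicate 2. In CD8 T cells both were highest in replicate 1, with shifts of 0.27 and 0.76. In Treg the Hspa1a shift was −1.74, with only 3 UMIs in replicate 1. For Hspa1a and Hspa1b the library order in macrophages (replicate 3, then 1, then 2) was that of the macrophage Fos and Jun values too. Class and library thus weighed differently on each member. The ratio of the highest to the lowest lymphocyte class was 4.77-fold for Dusp1 and 2.10-fold for Jun, where libraries differed by 1.33-fold and 1.13-fold. For Fosb, Jund and Atf3 the library ratios, 4.78-, 2.67- and 2.77-fold, exceeded the class ratios, 1.28-, 1.25- and 2.00-fold. The same held for Hspa1a (3.51- against 1.56-fold) and Fos (1.99- against 1.37-fold). It held narrowly for Hspa1b (2.17- against 2.10-fold) and Junb (1.57- against 1.52-fold). For the heat shock pair the highest library was replicate 3. Ier2 went the other way (1.21- against 1.38-fold).

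Other measures of the libraries moved with replicate 1. Its cells had a median mitochondrial share of 1.94%, against 4.19% and 3.89%, and a median of 4230 UMIs, against 6415 and 5521. Islet endocrine markers, which stand for RNA of other cells, were highest in replicate 1 in each lymphocyte class. They summed to 79.5, 52.7 and 15.0 CPM in CD8 T cells, 88.6, 26.5 and 27.6 in CD4 T cells, 99.3, 20.1 and 30.6 in Treg and 75.1, 16.2 and 4.19 in B cells. Plasma cell markers in B cells were at 3783, 805 and 2147 CPM. The cells that passed the filters but met no gate showed the shift as well, with Fosb at 122, 28.4 and 23.8 CPM and Jund at 993, 429 and 347. The study used 2 independent experiments, and which library belongs to which is not given in the sources used here. The part of depth, mitochondrial share, RNA of other cell types and experiment in the shift was not tested.

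Within classes, the heat shock transcripts sat in few cells. In macrophages of replicate 1, 18 of 31 cells held at least 1 UMI of the pair, and 7 cells with 10 or more held 80.5% of its 215 UMIs. In replicate 3 this was 15 of 27 cells, and 6 cells held 96.9% of 589 UMIs. In replicate 2 the pair gave 4 UMIs in 2 of 10 cells. The macrophage sum of Hspa1a and Hspa1b is thus a mixture of cells without a UMI and a few with up to 163.

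**Figure D4:**
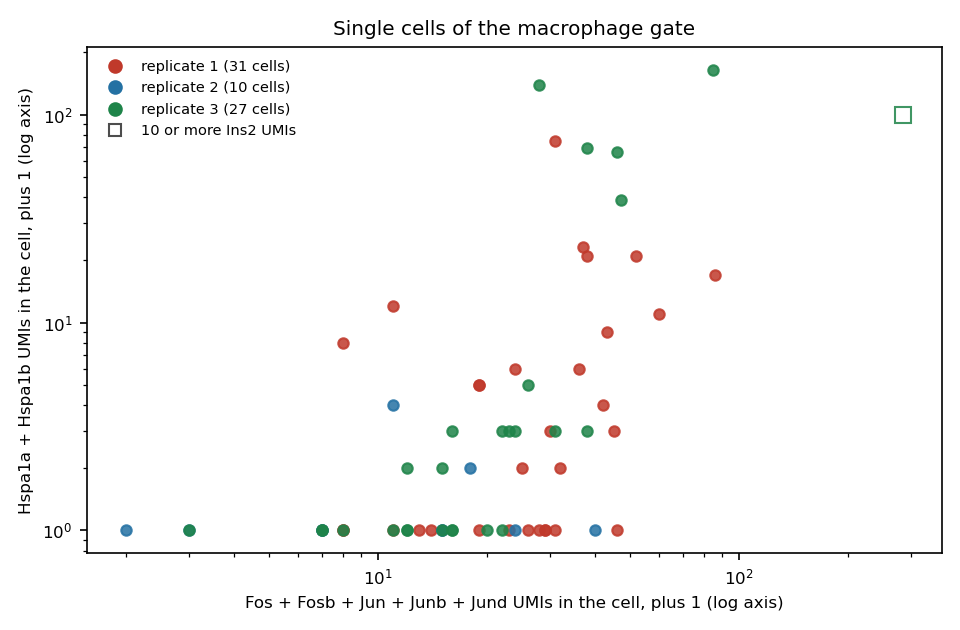
Each point is 1 of the 68 macrophages, with the summed UMIs of the 5 AP-1 subunit genes plus 1 on the x axis and those of Hspa1a and Hspa1b plus 1 on the y axis (both log axes), by library. The open square is the only cell with 10 or more Ins2 UMIs. The cells with the most heat shock UMIs lie in replicates 1 and 3, and many cells lie on the bottom line with none.

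The richest macrophage of replicate 3 held 544 of the 1853 member UMIs of that class (29.4%). It also held 183 of its 189 UMIs of Ins2, the insulin gene of beta cells, and had 12111 UMIs in all. Whether this barcode held a single cell was not tested. Without it Fos in replicate 3 was at 312 CPM, Hspa1a at 1245 and Atf3 at 616, all still above the lymphocytes. Cells with no Ins2 UMI were 20 of 31 macrophages in replicate 1 and 23 of 27 in replicate 3. They carried 80.5% of the heat shock pair UMIs of the class in replicate 1 and 55.5% in replicate 3. In replicate 1, 1 macrophage held 39 of the 63 Fos UMIs, and without it Fos was at 131 CPM. Jund was spread evenly instead, in 30 of 31 macrophages of replicate 1 with a median of 14 UMIs, and Fosb was in 28 of 31 with a median of 5.

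In lymphocytes of replicate 3 a few cells also held many of the UMIs of the pair, at a far lower level. In CD4 T cells of replicate 3, 121 of 2827 cells held 410 UMIs of the pair, and 8 cells with 10 or more held 50.5% of them, the richest with 99. In Treg of replicate 3, 2 of 746 cells held 61.2% of 152 UMIs. In B cells of replicate 3, 3 of 1331 cells held 56.4% of 101 UMIs. Cells with 10 or more thus held most of the UMIs of the pair in these 3 sums. In CD8 T cells of replicate 3, 2 cells held 32.9% of 82 UMIs. In 5 of the 12 lymphocyte sums, all of replicates 1 and 2, no cell had 10 or more.

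Shares of cells with a UMI were compared after each cell was thinned to 1000 UMIs. Over the 12 lymphocyte groups (4 classes in 3 libraries) Junb was found in 33.4% to 59.3% of cells, Jund in 26.8% to 63.1% and Ier2 in 11.1% to 26.2%. Dusp1 was found in 16.1% ± 2.50 of Treg, 12.1% ± 4.65 of CD4 T cells, 6.80% ± 0.884 of CD8 T cells and 3.72% ± 1.11 of B cells, in the order of its levels. The other members were sparse, with Fos in 2.55% to 7.32%, Jun in 2.23% to 7.04%, Fosb in 1.09% to 7.32%, Atf3 in 0.252% to 1.86%, Hspa1a in 0% to 0.697% and Hspa1b in 0.0841% to 0.778% of cells. In macrophages the shares were 36.1% ± 5.65 for Dusp1, 30.7% ± 18.4 for Atf3, 21.1% ± 24.8 for Fosb, and 19.4% ± 17.1 for Hspa1a and for Hspa1b. Without thinning the mean shares were higher, for example 60.8% for Dusp1 in Treg and 36.6% for Hspa1a in macrophages. No class here is known to lack these genes, so the level that free RNA alone would give could not be read, and shares of Hspa1a, Hspa1b and Atf3 near 1% in lymphocytes cannot be told from it.

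Fos-positive lymphocytes more often held Jun, Fosb, Junb and Dusp1 transcripts in most groups. In thinned cells, Jun was found in 6.31% to 21.3% of cells with a Fos UMI and in 1.98% to 6.66% of cells without, higher among Fos-positive cells in 12 of 12 groups. Fosb was higher in 11 of 12 groups, with medians of 10.5% and 1.40%. The exception was CD8 T cells of replicate 3, with 0 of 73 Fos-positive cells, which allows up to 4.11%. Junb (medians 56.7% and 44.5%) and Dusp1 (14.0% and 8.29%) were higher in 10 of 12 groups each. Hspa1a (1.96% and 0.279%) was higher in 8 of 12. The remaining members and genes outside the list were not compared in this way, so these counts have no background. The Fos-positive cells numbered 22 to 124 in a group, cells of a library are not replicates, and no test was made.

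**Figure D5:**
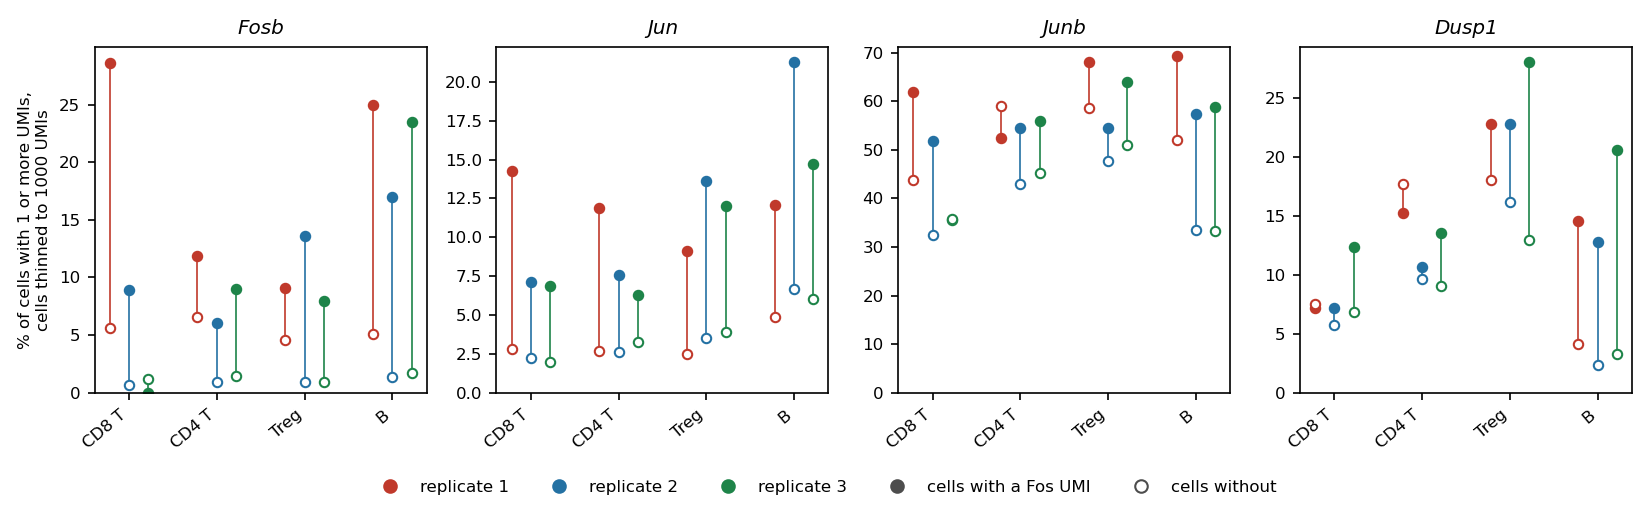
Percent of lymphocytes with at least 1 UMI of Fosb, Jun, Junb or Dusp1 among cells with a Fos UMI (filled) and without (open), each cell thinned to 1000 UMIs, by class and library. Filled points lie above the open ones in 10 to 12 of the 12 groups of each panel.

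In B cells Fosb followed Fos in each library. Among Fos-positive B cells Fosb was found in 25.0%, 17.0% and 23.5% of cells in replicates 1, 2 and 3, and among Fos-negative ones in 5.08%, 1.32% and 1.70%. Replicate 1 had 124 Fos-positive B cells of 1816, against 47 of 1789 and 34 of 1331. Its excess of Fosb was present in Fos-negative cells as well, in CD4 T cells with 6.54% against 0.927% and 1.47%. Fos-negative here means no Fos UMI after thinning, and some of these cells held Fos before it. In CD4 T cells of replicate 1, 187 of 915 cells held Fos before thinning and 59 after. Whether the excess lay in cells without Fos RNA was therefore not shown.

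Wider lists of genes of the same pathways were described beside the members. Of 40 other immediate early genes, 24 were higher and 7 lower in macrophages than in T cells (median log2 fold change 1.71, all genes −0.53, with 15.1% of all genes higher and 20.8% lower). Fosl1, a further Fos-family subunit (6.73 ± 0.61), and Maff (4.25 ± 0.26) rose most, and Nr4a2, an orphan nuclear receptor (−4.47 ± 0.71), and Fosl2 (−2.82 ± 0.29) fell most among those at 20 CPM or more. Fosl2, also of the Fos family, thus went the other way from Fos, Fosb and Fosl1, with 24.8 ± 19.0 CPM against 200.2 ± 35.2. Against B cells 23 were higher and 6 lower (median 1.44), where 15.4% and 20.6% of all genes were so (median −0.56). Ier3 (6.85 ± 0.46) and Fosl1 (4.63 ± 0.58) led, and Nr4a2 (−3.70 ± 0.81) and Gadd45a (−3.07 ± 0.45) were lowest. In B cells against T cells 15 were higher and 14 lower, where 27.3% and 29.5% of all genes were so, with the growth regulator Myc (2.11 ± 0.11) and Egr3 (2.72 ± 0.18) up, and Ier3 (−3.13 ± 0.33) and the NF-κB inhibitor Tnfaip3 (−2.74 ± 0.18) down. The genes named from the lists passed edgeR's test at an adjusted p under 0.05.

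Of 25 further heat shock genes, 24 were tested and 1, Cryab, was under the count filter. In macrophages against T cells 8 were higher and 2 lower (median 0.12), where 15.1% and 20.8% of all genes were so (median −0.53). The HSP70 co-chaperone Bag3 (2.69 ± 0.44) and Hsph1 (2.58 ± 0.50) rose most, and Fkbp4 (−0.99 ± 0.35) and Hspa4 (−0.76 ± 0.15) were the 2 that fell. Bag3 and Hsph1 were higher in 2 of 3 libraries only, and without replicate 3 they were at 1.37 and 0.22 and not called. Fkbp4 was not called without replicate 2 (−0.67) or replicate 3 (−1.12). Against B cells 7 were higher and 5 lower (median 0.07), where 15.4% and 20.6% of all genes were so (median −0.56). There Bag3 was at 4.89 ± 0.54 and Hsph1 at 2.17 ± 0.52, and the latter was at −0.01 without replicate 3. Hspa4 (−1.19 ± 0.16) and Fkbp4 (−1.16 ± 0.36) were lower again, Fkbp4 not without replicate 2 (−0.83) or replicate 3 (−1.25). In B cells against T cells 10 were higher and 6 lower, where 27.3% and 29.5% of all genes were so. Among the higher were the mitochondrial chaperones Hspd1 (0.69 ± 0.16) and Hspe1 (0.58 ± 0.13). Among the lower were Hspa4l (−1.16 ± 0.10) and Dnaja1 (−0.71 ± 0.27), the last not called without replicate 3 (−0.80).

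Of 15 AP-1 partners and upstream factors, 6 were higher and 3 lower in macrophages than in T cells (median 0.55). Over all genes 15.1% were higher and 20.8% lower (median −0.53). Against B cells 8 were higher and 3 lower (median 0.94), where 15.4% and 20.6% of all genes were so (median −0.56). The AP-1 repressor Jdp2 was higher in both, at 3.94 ± 0.21 and 5.39 ± 0.25. Crem (−3.50 ± 0.24 and −3.33 ± 0.26) and the serum response factor partner Elk4 (−2.05 ± 0.29 and −2.22 ± 0.29) were lower in both. In B cells against T cells 4 were higher and 6 lower, where 27.3% and 29.5% of all genes were so. The higher included Mafk (0.91 ± 0.13) and Atf4 (0.46 ± 0.16, not called without replicate 2 at 0.53). The lower included Maf (−4.07 ± 0.24) and Batf (−2.13 ± 0.16), the AP-1 partner of activated T cells.

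In CD8 against CD4 T cells 3 of the 40 early genes were higher and 3 lower, where 4.55% and 6.61% of all genes were so, with Ier3 (1.58 ± 0.25) and the phosphatase Dusp2 (0.89 ± 0.13) up, and Pim1 (−0.58 ± 0.12) and Gadd45a (−0.57 ± 0.13) down. Dusp2 thus had the opposite direction to Dusp1. Of the heat shock list 2 were higher, one of them Fkbp4 (0.43 ± 0.13), and 1 lower. Of the AP-1 partners 2 were higher and 2 lower, the latter Maf (−3.19 ± 0.24) and Crem (−0.73 ± 0.15). Of these, Gadd45a (−0.66 and −0.56), Fkbp4 (0.47 and 0.49) and Crem (−0.75 and −0.73) were not called without replicate 2 or replicate 3, and Pim1 not without replicate 3 (−0.58). In Treg against CD4 T cells 3 early genes were higher, including Cebpb (0.93 ± 0.12) and Gadd45b (0.56 ± 0.15), 1 heat shock gene, Hspa4l (0.47 ± 0.12), was higher, and 0 AP-1 partners were called by edgeR, where 3.48% of all genes were higher and 2.29% lower. Gadd45b (0.39 and 0.56) and Hspa4l (0.51 and 0.47) were not called without replicate 2 or replicate 3.

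Replicate 1 was highest in all 4 lymphocyte classes for 10 of the 40 early genes, 7 of the 24 heat shock genes and 3 of the 15 AP-1 partners, against 21.1% of all genes. Over all 5 classes the numbers were 6, 4 and 1, against 8.35% of all genes. The median lymphocyte shift was 0.14, 0.30 and 0.01 on the log2 scale, against 0.56 over the members and 0.048 over all genes.

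The genes most like 3 of the members were sought over the 15 sums of class and library, by Pearson's r of log2 CPM among 2788 genes with a mean of 50 or more. The sums share libraries and the macrophage sums stand apart, so r is a description. For Fos they were Clta (0.93), Ifrd1 (0.92), Ndel1 (0.91), Azin1 (0.91) and Fosb (0.91). For Dusp1 they included Erbin (0.99), Selenop (0.97), Peli1 (0.96) and Fem1c (0.95). For Hspa1a they were Hspa1b (0.97), Rragc (0.95), Eif4e (0.95), Rtn4 (0.93) and the stress-induced phosphatase subunit Ppp1r15a (0.91). Of the other members, Fosb was thus among the 5 for Fos and Hspa1b first for Hspa1a.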

How the data were processed

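Single-cell 3′ libraries (10x Genomics) of live CD45+ islet cells were analysed as 3 replicates of 1 group. The authors deposited raw UMI counts per gene and cell for 32285 genes, made with Cell Ranger (version 6.0.1 per the labels' processing notes) on mm10, without normalization, and no cell annotation was used here. Whether the libraries came from separate experiments is given only in part. The p-values rest on a spread estimated from the sums of all classes in these 3 libraries together. Differences common to a library were taken out by the block. For macrophages this spread is shared with the lymphocyte sums, so a small p-value does not mean that the macrophage libraries were alike.

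Cells with at least 1000 UMIs and under 10% mitochondrial UMIs were gated on raw UMIs: CD8 T (Cd3e at least 1, Cd8a plus Cd8b1 at least 2, no Cd4), CD4 T (Cd3e and Cd4 at least 1, no Cd8a, Cd8b1 or Foxp3), Treg (Cd3e and Foxp3 at least 1), B (Cd79a at least 2, no Cd3e) and macrophage (C1qa plus C1qb at least 5, no Cd3e, Cd79a at most 1). No doublet caller was run. UMIs were summed into 15 sums of class and library and given as counts per 1000000 UMIs of the sum (CPM). The sums were fitted together in edgeR 4.0.16 (R 4.3.3; filterByExpr, TMM, glmQLFit and glmQLFTest) with library as a block, since one pool of mice gave all classes of a library, and p-values were adjusted by Benjamini-Hochberg over 12099 genes at 0.05. The standard error is the log2 fold change over the square root of F. DESeq2 1.42.0 was an alternative. Deviations from class means correlated within a library with a mean r of 0.333 (30 pairs, 0.0395 to 0.743). Between libraries the mean was −0.148 (60 pairs, −0.638 to 0.416). The deviations of a class sum to 0 over libraries, so the mean between libraries is not an independent measure. Simulated counts with 200 altered genes served to check the fitting code. Shares of cells were computed after thinning to 1000 UMIs (2000 as an alternative). Limits for a count of 0 use 3 counts and cover counting error only.

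The members, the wider lists and the tests were chosen with earlier results of these data known. From each wider list and contrast, the text names up to 2 called genes with the largest rise and 2 with the largest fall, provided the class with more of the gene reached 20 CPM. Some genes that this rule or the likeness rule selects are not reported here. Promoters are from RefSeq on GRCm38.p6 (9 of 10 members matched).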

Additional observations from a re-analysis of the deposited data

How the results depend on the processing

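Calls for the members depended on the fit. Members higher in macrophages than in T cells numbered 8 in the reported fit (1826 of 12099 genes) and 6 after thinning (488 of 8004). They numbered 7 without the replicate block (1757 of 12099) and 9 without the count filter (2029 of 20618). Without replicate 3 they numbered 6 (1341 of 11751) and without replicate 2 they numbered 9 (1695 of 11995). Against B cells they numbered 8 (1865 of 12099), and 6 after thinning (507 of 8004). Members called higher in B than in T cells are given with all genes called higher in brackets. They numbered 2 in the reported fit (3307 of 12099) and 0 by DESeq2 (3051 of 12099). They numbered 1 with scaling by total UMIs (2523 of 12099) and 1 without the replicate block (2249 of 12099). With the study's cell filter they numbered 4 (2520 of 9356). That filter kept cells with 200 to 5000 genes and fewer than 6000 UMIs, of which less than 5% were mitochondrial and more than 5% ribosomal. After thinning to 1000 UMIs they numbered 4 (1935 of 8004). With lymphocyte classes only, added after seeing the cell counts, they numbered 4 (3687 of 12063). Without a filter on low counts they numbered 5 (3840 of 20618). Members called lower there numbered 2 (3567 of 12099), and 1 without the count filter (3579 of 20618) or without the replicate block (2602 of 12099). In CD8 against CD4 T cells the reported fit had 2 members lower (800 of 12099 genes) and 0 higher (550 of 12099). There 0 were lower without the replicate block (269 of 12099) and 1 under the study's filter (381 of 9356). Without the count filter 1 was higher (772 of 20618), and under the study's filter 2 were (289 of 9356). In Treg 1 member was higher under the study's filter (439 of 9356 genes) and 1 lower after thinning (184 of 8004). Without the richest macrophage cell of each library 1 member, Ier2, was lower than in T cells (−0.86) and 1 lower than in B cells. Over all 12083 genes tested then, 2499 and 2457 were lower. Leaving out each replicate gave 0 to 1 members lower in macrophages against T cells (1650 to 2024 of all genes) and against B cells (1566 to 1892). It gave 1 to 3 higher (2283 to 3260 of all genes) and 1 to 2 lower (2595 to 3935) in B against T cells. In CD8 against CD4 T cells it gave 1 to 2 lower (278 to 937 of all genes). These fits tested 11751 to 12343 genes. Replicate 1 was highest in all 5 classes for 2 members under strict gates, against 5, with no share of all genes computed under those gates.

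Log2 fold changes turned sign mostly where they were near 0. After thinning to 1000 UMIs Junb (−0.0667) and Ier2 (−0.46) in macrophages against T cells, Jund (−0.0028) against B cells, Jun in CD8 (−0.23) and Junb in Treg against CD4 T cells (0.0592) did so. Of these, only Junb had been called. Hspa1b was then under the count filter. With scaling by total UMIs it was Jun (−0.0792) and Jund (−0.0895) in CD8 and Fosb (0.0026) and Junb (0.0396) in Treg. Under the study's filter it was Fos (0.0057), Hspa1a (0.98) and Hspa1b (0.21) in B against T cells, Jun (−0.0865) in CD8 and Junb (0.14) in Treg. Under strict gates it was Hspa1a in B cells (0.13) and Junb in Treg (0.0003), without the replicate block Fos in B cells (0.0083) and Jund in Treg (−0.0453), and without Malat1, mitochondrial and ribosomal genes Jund in CD8 (−0.0014). Over the 3 leave-one-out fits the values ran from −0.94 to 0.42 (Ier2) in macrophages against T cells, from −1.38 to 0.20 (Ier2), −0.11 to 0.62 (Jund) and −0.0137 to 2.57 (Hsph1) against B cells, and from −0.59 to 0.0586 for Fos in B against T cells. In CD8 against CD4 T cells they ran from −0.0418 to 0.30 (Fosb), −0.21 to 0.18 (Jun), −0.0088 to 0.06 (Jund) and −0.85 to 0.15 (Hspa1a), and in Treg from −0.27 to 0.14 (Fosb), −0.0851 to 0.0261 (Junb), −0.0421 to 0.13 (Jund) and −0.63 to 0.0933 (Hspa1a). The cause was not tested.

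Counts over all genes moved as well. Higher and lower calls fell, after thinning, to 488 and 1257 (macrophage against T, from 1826 and 2521), 507 and 1287 (macrophage against B, from 1865 and 2494), 1935 and 1951 (B against T, from 3307 and 3567) and 298 and 380 (CD8 against CD4, from 550 and 800), and without the replicate block to 156 and 269 (CD8 against CD4) and 76 and 29 (Treg against CD4, from 421 and 277). The study's filter left 18, 1 and 4 macrophages, so the macrophage contrasts were not run under it. The 31, 10 and 27 macrophages limit what their sums can show.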

Other observations

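Cells that passed the filters but met no gate numbered 2079, 3504 and 4827 in replicates 1, 2 and 3. In them Fos was at 149, 72.7 and 72.9 CPM, Junb at 1060, 624 and 688, Dusp1 at 149.6, 86.3 and 84.7 and Atf3 at 43.4, 14.4 and 15.2. Hspa1a was at 10.7, 6.38 and 14.1 and Hspa1b at 7.06, 5.77 and 9.92 CPM, highest in replicate 3 as in most gated classes.

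Egr1, an early zinc finger factor chosen here after its values were seen, was at 111, 0 and 886 CPM in the macrophages of replicates 1, 2 and 3, the order of Jun and Hspa1a in the same cells. In B cells it was at 67.0, 32.7 and 31.2, highest in replicate 1 as Fos was. Replicate 2 macrophages held 126156 UMIs, in which a count of 0 allows up to 23.8 CPM.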
